A study of Mus musculus with 9 samples.

Results

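The 9 genes described here encode the enzymes that make serine from a glycolytic intermediate and that carry one of its carbons on folate. They were chosen by symbol, as the rows for Phgdh, Psat1, Psph, Shmt1, Shmt2, Mthfd1, Mthfd2, Mthfd1l and Aldh1l2, 9 of the 15768 genes in the deposited table. RNA was measured in LLC1, a mouse tumour cell line from a Lewis lung carcinoma, and in SCC1 and SCC2, subclones of LLC1 obtained by limiting dilution. All 3 lines are labelled as wild type and untreated, and were grown with 10% fetal bovine serum; the subclones had been passaged 5 to 8 times. The series title concerns growth of the subclones in animals, while these libraries are labelled as cultured cells. Each subclone is 1 clone, so a value for SCC1 or SCC2 describes that clone. Each line had 3 libraries, and the labels do not say whether a line's libraries stem from independent cultures; p-values therefore reflect the spread among these libraries alone, which may be technical.

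Cells make serine from the glycolytic intermediate 3-phosphoglycerate in 3 steps: Phgdh oxidises it, Psat1 adds an amino group taken from glutamate, and Psph removes the phosphate. Serine hydroxymethyltransferase, Shmt1 in the cytosol and Shmt2 in mitochondria, then moves a carbon from serine to tetrahydrofolate and leaves glycine. In mitochondria Mthfd2 oxidises the folate-bound carbon, Mthfd1l releases it as formate, and Aldh1l2 can oxidise it further to carbon dioxide. In the cytosol the single protein Mthfd1 puts formate back onto folate for the synthesis of purines, thymidylate and methionine. Several of these genes are known targets of the stress-response transcription factor ATF4, and the mitochondrial branch is known for its high expression in many tumours.

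Levels are FPKM (fragments per kilobase of gene, scaled to the library's total), so levels of different genes may be set side by side. Fragment totals recovered from the table ran from 17094808 to 19398657 per library, and a member had between 373 and 16821 fragments in a library. Log2 changes are differences of log2(FPKM + 1), which understate the change of low genes. Adjusted p-values come from limma with Benjamini-Hochberg adjustment over all 10519 tested genes, and genes under a threshold of 0.05 are called. All 9 members passed the filter of 1 FPKM in at least 3 libraries. The epithelial keratins Krt8 and Krt18 were present in each line and moved in the order opposite to most members: their mean levels were 113 and 223 FPKM in LLC1, 155 and 295 in SCC1, and 75.3 and 157 in SCC2, all called. Krt19 was 1.40, 1.27 and 0.333 FPKM in LLC1, SCC1 and SCC2, called lower in SCC2, while Cdh1 reached at most 0.00853 FPKM on average. Summed over 5 fibroblast markers the level was 9.02 to 10.0 FPKM in LLC1, 5.92 to 6.20 in SCC1 and 5.92 to 6.65 in SCC2. Of these, Pdgfra (-0.50 and -0.61) and Dcn (-0.26 and -0.37) were called lower in SCC1 and SCC2. Lum, which did not pass the filter, was 0.725 FPKM in LLC1, 0.0865 in SCC1 and 0.994 in SCC2. All 4 endothelial markers and both lung epithelium markers and both lymphocyte markers in the table were under 1 FPKM in every library. Summed over 3 macrophage and leukocyte markers, of which only Cd68 reached 1 FPKM, the level was 3.89 to 4.77 FPKM in LLC1, 8.41 to 10.5 in SCC1 and 2.83 to 3.27 in SCC2. The part of these cell type markers in the results was not tested.

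In SCC2 the serine synthesis genes and the mitochondrial folate genes were higher than in LLC1, and in SCC1 Psat1, Psph, Shmt2, Mthfd2 and Aldh1l2 were lower. Cytosolic Shmt1 was higher in SCC1. In SCC2 8 members rose and 1, Shmt1, fell against LLC1 (limma), where 67.6% of all tested genes were called, 34.7% higher and 32.9% lower. The calls for Shmt1 in SCC2 (adjusted p = 0.0523) and for Mthfd1l in SCC1 (log2 change 0.13 in place of -0.06) did not hold once chromosome medians were subtracted. In SCC1 6 members fell, 2 rose and Mthfd1 did not pass against LLC1, where 70.1% of tested genes were called, 30.9% lower and 39.2% higher. SCC2 against SCC1 gave 8 members higher and 1 lower, where 76.3% of tested genes were called, 37.0% higher and 39.4% lower. The libraries of the lines compared did not overlap for any of the 9 members in any comparison, which was also so for 72.3% of tested genes in SCC1 against LLC1, 70.7% in SCC2 against LLC1 and 77.9% in SCC2 against SCC1. Since most tested genes pass the threshold in each comparison, the sizes of the changes are given beside the calls. A log2 change of at least 0.5 in either direction was found for 6 of the 9 members in SCC2 against LLC1, all of them higher, and for 8.29% of tested genes. The same size was found for 2 members and 9.21% of tested genes in SCC1 against LLC1, and for 6 members and 16.9% of tested genes in SCC2 against SCC1. A log2 change of at least 1 was found for 0 members in SCC1 against LLC1 (1.92% of tested genes), for Aldh1l2 in SCC2 against LLC1 (1.59%) and for Psat1, Psph, Shmt2 and Aldh1l2 in SCC2 against SCC1 (3.35%). The median log2 change of the 9 members was 0.64 in SCC2 and -0.14 in SCC1 against LLC1, and the medians over all tested genes were 0.0075 and 0.033. Both comparisons with LLC1 share the LLC1 libraries, so their values are set side by side and are not independent. In these bulk samples fewer or more cells with a transcript and less or more of it per cell cannot be told apart.

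**Figure D1:**
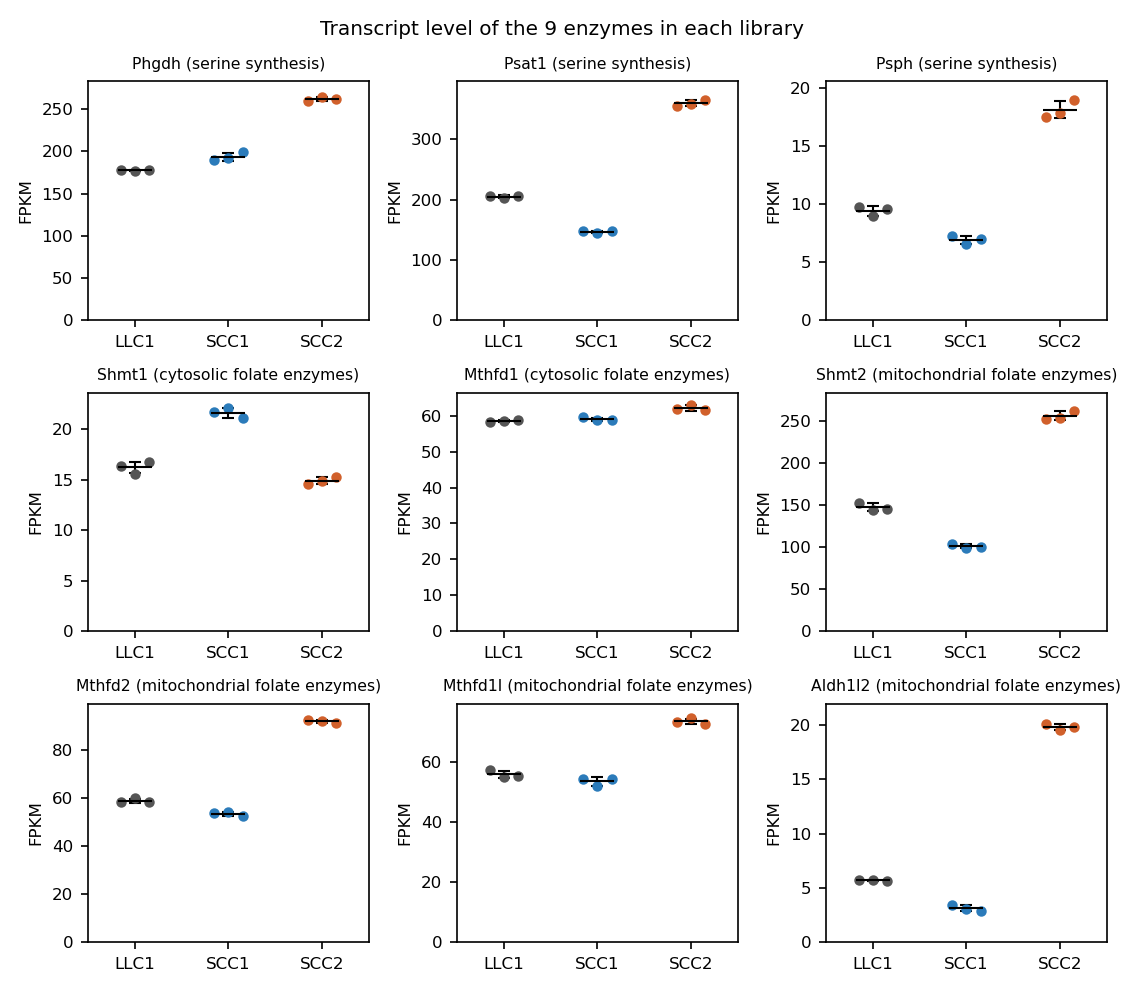
FPKM of each of the 9 enzymes (vertical axis, from 0) in the 3 libraries of LLC1 (grey), SCC1 (blue) and SCC2 (orange). Points are libraries, and black bars are the mean and SD. SCC2 sits above both other lines for every gene but Shmt1, which was highest in SCC1 at 21.6 FPKM on average.

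Upstream sequence is shown for 4 members that span the pattern, since Psat1, Shmt2 and Mthfd2 were higher in SCC2 than in SCC1 and Shmt1 was lower. The 150 bases come from the RefSeq promoter table (build GRCm38.p6), lie before a RefSeq start site outside GENCODE M21 exons and are given in the direction of the gene. Capitals mark the CCAAT box, the motif bound by the factor NF-Y, or ATTGG where the box is on the opposite strand.
Psat1 (chr19:15925060-15925209, minus strand): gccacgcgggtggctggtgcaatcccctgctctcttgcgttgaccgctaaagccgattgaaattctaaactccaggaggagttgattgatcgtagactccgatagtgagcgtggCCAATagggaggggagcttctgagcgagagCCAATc
Shmt2 (chr10:127522445-127522594, minus strand): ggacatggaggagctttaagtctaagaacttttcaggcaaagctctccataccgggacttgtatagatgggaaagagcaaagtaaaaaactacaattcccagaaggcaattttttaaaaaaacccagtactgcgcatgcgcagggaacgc
Mthfd2 (chr6:83317607-83317756, minus strand): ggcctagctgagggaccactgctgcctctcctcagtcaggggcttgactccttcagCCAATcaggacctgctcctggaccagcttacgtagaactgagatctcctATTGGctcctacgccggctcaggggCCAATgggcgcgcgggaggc
Shmt1 (chr11:60811266-60811415, minus strand): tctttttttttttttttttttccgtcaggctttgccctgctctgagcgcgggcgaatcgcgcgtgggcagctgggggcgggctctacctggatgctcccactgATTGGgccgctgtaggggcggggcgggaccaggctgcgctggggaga

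The Psat1 stretch held 2 CCAAT boxes, the Mthfd2 stretch 3, the Shmt1 stretch 1 and the Shmt2 stretch 0. The RefSeq table held windows of 300 bases, 250 before and 50 after each start, for 8 of the 9 members. Aldh1l2 had no window, and Psat1 had a window for each of 2 starts. The window of the second Psat1 start, not printed, held 0 CCAAT boxes. CCAAT was present on either strand in 6 of the 9 member windows, which belong to 6 of these 8 members, and in 37.4% of the 32851 windows of all genes. The element TGATGNAA, the composite site of C/EBP and ATF factors, was found in 0 of the 8 members and in 3.97% of all windows, both strands searched. The cyclic AMP response element TGACGTCA was found in 0 of 8 members and in 1.79% of windows, and the E-box CACGTG in 0 of 8 and in 7.15%. With shares this low, 0 of 8 members does not set the members apart from all windows. CCAAT was added to the search after the sequences had been seen, so its share in the member windows does not set the members apart either. In the member windows no hits of different motifs overlapped, since CCAAT was the motif found there. A match describes letters in a window, and binding was not measured.

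Phgdh (phosphoglycerate dehydrogenase, chr3:98313170-98339990, minus strand, GRCm38), which catalyses the entry step of serine synthesis, was higher in both subclones. It had 177.3, 177.2 and 177.5 FPKM in the LLC1 libraries, 190.2, 191 and 199 FPKM in SCC1, and 260.0, 265 and 262 FPKM in SCC2. The libraries of the 3 lines did not overlap, with SCC2 highest and LLC1 lowest. The log2 change against LLC1 was 0.12 in SCC1 (SE 0.0186, limma adjusted p = 9.02e-05) and 0.56 in SCC2 (SE 0.0186, adjusted p = 3.97e-10). The mean level in SCC2 was 1.48 times that of LLC1, and that in SCC1 1.09 times, a change exceeded in size by 62.8% of tested genes. Phgdh was the 1 serine synthesis gene whose level in SCC1 was above that in LLC1. Of its 31-base words, 74.1% also occur in annotated transcripts of 26 other genes, led by the processed pseudogene Gm7901 with 59.0%. No source used here says how reads matching several places were counted, and the Phgdh level is uncertain for that reason.

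Psat1 (phosphoserine aminotransferase, chr19:15904678-15947337, minus strand) was the most abundant of the 9 in LLC1 and in SCC2. Its level was 206, 203 and 207 FPKM in LLC1, 147.5, 145 and 148.5 FPKM in SCC1, and 355, 359 and 366 FPKM in SCC2. Every SCC1 library lay below, and every SCC2 library above, the LLC1 libraries. The log2 change against LLC1 was -0.48 in SCC1 (SE 0.0172, limma adjusted p = 6.56e-10) and 0.81 in SCC2 (SE 0.0172, adjusted p = 1.55e-11). Between the subclones the mean level differed 2.45-fold, a log2 change of 1.29 (adjusted p = 1.15e-13) that 1.94% of tested genes exceeded in size.

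Psph (phosphoserine phosphatase, chr5:129765558-129787449, minus strand), which catalyses the last step, was the least abundant of the 3. Its level was 9.72, 8.95 and 9.59 FPKM in LLC1, 7.22, 6.56 and 7.03 FPKM in SCC1, and 17.5, 17.8 and 18.9 FPKM in SCC2. The lines again did not overlap and stood in the order SCC1, LLC1, SCC2. The log2 change against LLC1 was -0.39 in SCC1 (SE 0.044, limma adjusted p = 8.59e-06) and 0.87 in SCC2 (SE 0.044, adjusted p = 1.20e-08). Of the 31-base words of the Psph transcript, 24.8% also occur in Cct6a. Exons of Psph share 452 of their 4329 bases with Cct6a, a chaperonin subunit gene on the opposite strand, which had 135 ± 2.19 FPKM in LLC1, 159.9 ± 4.26 in SCC1 and 154 ± 2.35 in SCC2 (SD, n = 3 each). The series text names a kit that keeps the strand, but the sample labels name another kit. No source used here says if the counting used the strand, and the part of Cct6a in the Psph values was not tested.

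Summed over the 3 serine synthesis genes, the level was 392 ± 2.31 FPKM in LLC1, 347 ± 5.99 FPKM in SCC1 and 640.3 ± 7.18 FPKM in SCC2 (SD, n = 3 each). The order within the pathway differed between lines as well. Psat1 exceeded Phgdh in all libraries of LLC1 and SCC2, and Phgdh exceeded Psat1 in all libraries of SCC1. Psph was by far the lowest of the 3 on the FPKM scale in each line.

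Among the cytosolic enzymes, Shmt1 was the 1 member that was highest in SCC1, and Mthfd1 was nearly level across the lines. Shmt1 (cytosolic serine hydroxymethyltransferase, chr11:60788104-60811718, minus strand) had 16.4, 15.6 and 16.7 FPKM in LLC1, 21.7, 22.1 and 21.1 FPKM in SCC1, and 14.6, 14.9 and 15.2 FPKM in SCC2. SCC1 lay above both other lines without overlap, and SCC2 lay just below LLC1. The log2 change against LLC1 was 0.39 in SCC1 (SE 0.0326, limma adjusted p = 6.61e-07) and -0.12 in SCC2 (SE 0.0326, adjusted p = 0.00771). The second is a small change, exceeded in size by 62.7% of tested genes, and its call was lost when the median change of each gene's chromosome was subtracted (adjusted p = 0.0523). Of the 31-base words of Shmt1, 5.45% also occur in Smcr8. Exons of Shmt1 share 184 of their 3883 bases with Smcr8 on the opposite strand, whose level was 12.2 ± 0.0622 FPKM in LLC1, 17.5 ± 0.313 in SCC1 and 11.8 ± 0.263 in SCC2 (SD, n = 3 each). Smcr8 thus had the same order of lines as Shmt1, and its part in the Shmt1 values was not tested. The median log2 change of chromosome 11 was 0.17 in SCC1 and -0.036 in SCC2, and with it subtracted the Shmt1 change in SCC1 was 0.23. Between the subclones the Shmt1 change was -0.51, and -0.31 with chromosome medians subtracted.

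Mthfd1 (chr12:76255298-76319803, plus strand), the cytosolic enzyme that makes and interconverts formyl, methenyl and methylene folate, had 58.1, 58.5 and 58.7 FPKM in LLC1. It had 59.5, 58.7 and 58.7 FPKM in SCC1, and 61.8, 63.0 and 61.6 FPKM in SCC2. LLC1 and SCC1 met at 58.7 FPKM without overlapping, and SCC2 lay slightly above both. The log2 change in SCC1 was 0.013 with a 95% confidence interval from -0.028 to 0.053 and did not pass (limma adjusted p = 0.558), and 96.1% of tested genes had a larger change. Its sign depended on the scaling: it was -0.0044 with median-of-ratios scaling, -0.041 after quantile normalisation and -0.056, now called lower (adjusted p = 0.0214), with chromosome medians subtracted. In SCC2 the change was 0.09 (SE 0.0186, limma adjusted p = 0.00137), a mean level 1.06 times that of LLC1, and the call was lost after quantile normalisation (0.035, adjusted p = 0.132).

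All 4 mitochondrial enzymes were higher in SCC2 than in LLC1, with Aldh1l2 at 3.46 times its LLC1 level. In SCC1 Shmt2, Mthfd2 and Aldh1l2 were lower than in LLC1, and the small fall called for Mthfd1l did not hold under several alternatives given below. Shmt2 (mitochondrial serine hydroxymethyltransferase, chr10:127517123-127522444, minus strand) had 153, 144.0 and 146 FPKM in LLC1, 104, 99.5 and 100.1 FPKM in SCC1, and 252, 254 and 262 FPKM in SCC2. The lines were far apart relative to the spread of their libraries. The log2 change against LLC1 was -0.54 in SCC1 (SE 0.0255, limma adjusted p = 5.51e-09) and 0.79 in SCC2 (SE 0.0255, adjusted p = 3.15e-10). Between the subclones Shmt2 differed 2.53-fold in mean level, a log2 change of 1.33 (adjusted p = 2.24e-12). Shmt2 lies on chromosome 10, like Mthfd1l and Aldh1l2, and the median log2 change over that chromosome's tested genes was -0.19 in SCC1, 0.096 in SCC2 and 0.28 between them. With these medians subtracted, the Shmt2 change in SCC1 was -0.35.

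Mthfd2 (chr6:83305691-83325908, minus strand), the mitochondrial methylene-folate dehydrogenase and cyclohydrolase, had 58.4, 59.9 and 58.2 FPKM in LLC1. Its level was 53.6, 54.2 and 52.4 FPKM in SCC1, and 92.4, 92.1 and 91.2 FPKM in SCC2. SCC1 lay just below LLC1 and SCC2 well above it, without overlap. The log2 change was -0.14 in SCC1 (SE 0.0202, limma adjusted p = 8.13e-05), exceeded in size by 59.0% of tested genes, and 0.64 in SCC2 (SE 0.0202, adjusted p = 2.93e-10), exceeded by 4.70%. The median of chromosome 6 in SCC1 was 0.13, of opposite sign, and with it subtracted the Mthfd2 change there was -0.27.

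Mthfd1l (chr10:3973118-4167081, plus strand), the mitochondrial formyl-folate synthetase that releases formate, had 57.1, 54.8 and 55.3 FPKM in LLC1. Its level was 54.3, 51.8 and 54.3 FPKM in SCC1, and 73.1, 74.3 and 72.5 FPKM in SCC2. LLC1 and SCC1 were separated by a narrow gap, and SCC2 lay above both. The rise in SCC2 was 0.39 on the log2 scale (SE 0.0243, limma adjusted p = 7.47e-08), a mean level 1.32 times that of LLC1. In SCC1 the change was -0.06 (SE 0.0243, adjusted p = 0.0444), and this call did not hold. It was lost without LLC1 replicate 1 (-0.044, adjusted p = 0.166), LLC1 replicate 3 (-0.065, adjusted p = 0.0603), SCC1 replicate 2 (-0.038, adjusted p = 0.186) or any 1 of the SCC2 libraries (adjusted p from 0.0523 to 0.0574). With the median change of chromosome 10 subtracted it turned to 0.13 (adjusted p = 0.00051), and the change between the subclones went from 0.45 to 0.16.

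Aldh1l2 (chr10:83487450-83534140, minus strand), the mitochondrial formyl-folate dehydrogenase, showed the largest log2 change of the 9 members in each comparison. Its level was 5.71, 5.77 and 5.66 FPKM in LLC1, 3.48, 3.07 and 2.91 FPKM in SCC1, and 20.03, 19.5 and 19.8 FPKM in SCC2. The lines did not overlap, and SCC2 lay far above both others. The log2 change against LLC1 was -0.69 in SCC1 (SE 0.0459, limma adjusted p = 9.91e-08) and 1.63 in SCC2 (SE 0.0459, adjusted p = 1.28e-10). Among genes higher in SCC2 than in LLC1 it ranked 5 of the 10519 tested. In mean FPKM SCC2 stood at 3.46 times LLC1 and at 6.26 times SCC1, a log2 change between the subclones of 2.32 (adjusted p = 2.89e-12). With chromosome medians subtracted the changes were -0.50 in SCC1 and 1.53 in SCC2 against LLC1, and 2.03 between the subclones. Of the 31-base words of Aldh1l2, 17.1% also occur in D10Wsu102e. Exons of Aldh1l2 share 1056 of their 7503 bases with D10Wsu102e on the opposite strand, which had 20.4 ± 0.736 FPKM in LLC1, 18.8 ± 0.363 in SCC1 and 25.0 ± 0.408 in SCC2 (SD, n = 3 each). D10Wsu102e had the same order of lines as Aldh1l2 over a smaller range, and its part in the Aldh1l2 values was not tested.

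**Figure D2:**
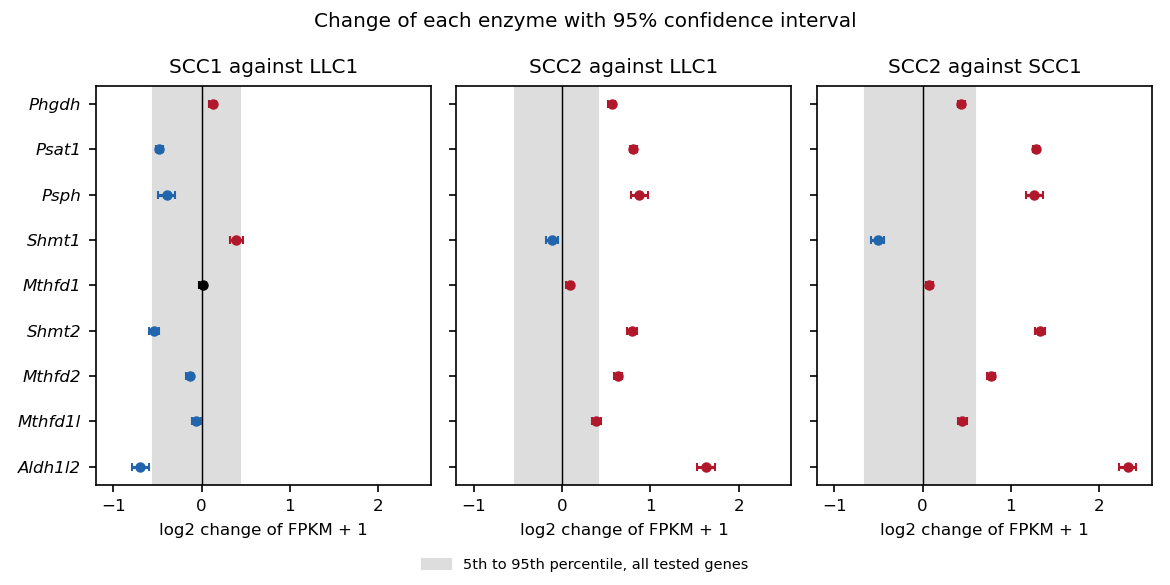
Log2 change of FPKM + 1 (horizontal axis) of each enzyme in the 3 comparisons, with bars for the 95% confidence interval and red, blue and black for called higher, called lower and did not pass. The grey band holds the 5th to 95th percentile of all tested genes. In SCC2 against LLC1, 6 enzymes lie to the right of the band, Aldh1l2 farthest at 1.63.

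Grouped by role, the median log2 change of the serine synthesis genes was -0.39 in SCC1 and 0.81 in SCC2 against LLC1. That of the 4 mitochondrial genes was -0.34 and 0.71, and that of the 2 cytosolic genes was 0.20 and -0.015. Summed FPKM of the mitochondrial genes was 268 ± 5.28 in LLC1, 211 ± 3.39 in SCC1 and 441 ± 4.05 in SCC2 (SD, n = 3 each). The sum of the cytosolic genes was 74.7 ± 0.652 in LLC1, 80.6 ± 0.747 in SCC1 and 77.0 ± 0.772 in SCC2 (SD, n = 3 each), a far narrower range. Summed over all 9, the libraries ran from 728 to 741 FPKM in LLC1, from 632 to 644 in SCC1 and from 1147 to 1169 in SCC2.

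The balance between mitochondrial and cytosolic enzymes was described for 3 pairs by ratios of FPKM within a library, with no test. Aldh1l2 was in no ratio. Neither was a further folate gene, Mthfd2l, at 6.32, 6.56 and 6.45 FPKM in LLC1, SCC1 and SCC2 and called in no comparison. The ratio of Shmt2 to Shmt1 was 9.32, 9.23 and 8.71 in LLC1, 4.77, 4.51 and 4.74 in SCC1, and 17.3, 17.1 and 17.2 in SCC2. Against LLC1 the log2 change of Shmt2 was -0.54 in SCC1 and 0.79 in SCC2, and that of Shmt1 was 0.39 and -0.12. The Shmt1 call in SCC2 was lost with chromosome medians subtracted (limma adjusted p = 0.0523). The ratio of Mthfd2 to Mthfd1 was 1.01 ± 0.0154 in LLC1, 0.906 ± 0.0157 in SCC1 and 1.48 ± 0.0166 in SCC2 (SD, n = 3 each). Here the nearly level Mthfd1 left the ratio to follow Mthfd2. The ratio of Mthfd1l to Mthfd1 was 0.954 ± 0.024 in LLC1, 0.906 ± 0.0211 in SCC1 and 1.18 ± 0.00237 in SCC2 (SD, n = 3 each). For each of the 3 ratios SCC2 lay above every library of LLC1 and SCC1, and SCC1 lay below every library of LLC1. Overlap was not counted for ratios of other genes, and as single genes 70.7% to 77.9% of those tested did not overlap. The Mthfd1l change in SCC1, -0.06 on the log2 scale, turned to 0.13 with chromosome medians subtracted.

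**Figure D3:**
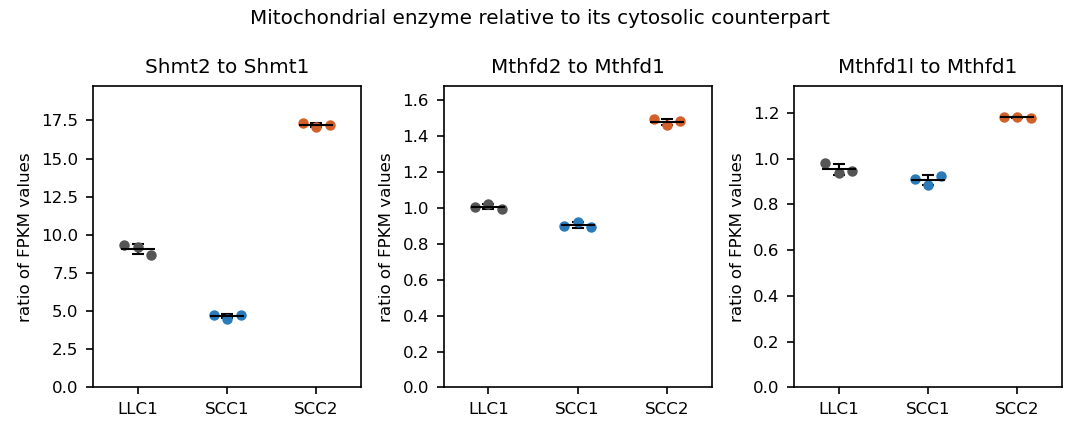
Ratio of the FPKM of a mitochondrial enzyme to that of its cytosolic counterpart (vertical axis, from 0) in each library of the 3 lines, with the mean and SD. The Shmt2 to Shmt1 ratio spreads most, from 4.67 on average in SCC1 through 9.09 in LLC1 to 17.2 in SCC2.

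Ordered by level, Psat1, Phgdh and Shmt2 were the 3 most abundant members in each line. In LLC1 the order went on with Mthfd2 and Mthfd1, whose libraries overlapped, then Mthfd1l, Shmt1, Psph and Aldh1l2. In SCC1 Mthfd1 came next, Mthfd1l and Mthfd2 overlapped, and Shmt1, Psph and Aldh1l2 again closed the order. In SCC2 Phgdh and Shmt2 overlapped behind Psat1, followed by Mthfd2, Mthfd1l and Mthfd1. The bottom of the order was turned round in SCC2, where Aldh1l2 and Psph stood above Shmt1. All other neighbours were separated without overlap between libraries.

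The genes around these enzymes were read from 7 lists. Of 11 tested regulators and genes commonly used as reporters of ATF4, 8 rose and 0 fell in SCC2 against LLC1, and 1 rose and 6 fell in SCC1 (median log2 change 0.41 and -0.087, where those of all tested genes were 0.0075 and 0.033). Atf4 itself, the transcription factor of the amino acid response, stood at 263 ± 5.9 FPKM in LLC1, 242 ± 1.52 in SCC1 and 337 ± 8.37 in SCC2 (SD, n = 3 each), log2 changes of -0.12 (limma adjusted p = 0.000435) and 0.36 (adjusted p = 5.22e-08). Asns, which makes asparagine, stood at 105 ± 2.37 FPKM in LLC1, 80.8 ± 1.08 in SCC1 and 174 ± 3.23 in SCC2. Atf5, a related transcription factor, changed by -0.64 in SCC1 and 1.37 in SCC2, and Trib3, a pseudokinase, by -0.28 and 1.08. Chac1, which degrades glutathione, changed by -0.92 and 1.0. Myc, a growth regulator, did not share this order: it was 184 ± 4.26 FPKM in LLC1, 237 ± 1.87 in SCC1 and 229.9 ± 5.19 in SCC2, higher in both subclones.

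Of 10 tested transporters of serine, glycine and related amino acids, 6 rose and 2 fell in SCC2 against LLC1, and 2 rose and 5 fell in SCC1, with medians of 0.27 and -0.13. The glycine transporter Slc6a9 stood at 17.7 ± 0.825 FPKM in LLC1, 6.89 ± 0.4 in SCC1 and 26.5 ± 0.68 in SCC2 (SD, n = 3 each), a log2 change between the subclones of 1.80. Slc1a5, a carrier of neutral amino acids, changed by -0.44 in SCC1 and 0.44 in SCC2. Sfxn1, which carries serine into mitochondria, was 39.7 ± 0.514 FPKM in LLC1, 41.7 ± 0.989 in SCC1 and 57.9 ± 0.966 in SCC2, with a rise of 0.53 in SCC2. Slc38a1, another carrier of neutral amino acids, went the opposite way to most members, at 0.27 in SCC1 and -0.40 in SCC2.

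Of 9 tested genes of folate transport and interconversion, 3 rose and 3 fell in SCC2 against LLC1, and 4 rose and 2 fell in SCC1 (medians 0.024 and 0.05). Slc19a1, the reduced folate carrier of the plasma membrane, was 10.6 ± 0.567 FPKM in LLC1 and 15.1 ± 0.244 in SCC2, a log2 change of 0.47. Slc25a32, the mitochondrial folate carrier, changed the other way in SCC2, from 11.6 ± 0.225 to 8.82 ± 0.11 FPKM. Mthfs, which returns formyl folate to the active pool, was 2.43 ± 0.196 FPKM in LLC1, 5.87 ± 0.42 in SCC1 and 2.91 ± 0.794 in SCC2, with a rise in SCC1 of 1.0 on the log2 scale.

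Of 8 tested further enzymes of serine and glycine, 3 rose and 4 fell in SCC2 and 6 rose and 1 fell in SCC1 against LLC1 (medians -0.15 and 0.16). Gcat, which splits a product of threonine to glycine, was 15.3 ± 0.248 FPKM in LLC1, 18.7 ± 0.273 in SCC1 and 11.3 ± 0.575 in SCC2 (SD, n = 3 each). Gcsh, the carrier protein of the glycine cleavage system, rose in both subclones, by 0.26 in SCC1 and 0.32 in SCC2. In the methionine cycle and transsulfuration 3 of 11 tested genes rose and 6 fell in SCC2, and 5 rose and 3 fell in SCC1 (medians -0.079 and 0.081). Cth, the enzyme that makes cysteine from cystathionine, had the order of most members, lowest in SCC1 and highest in SCC2. Its level was 6.48 ± 0.335 FPKM in LLC1, 3.04 ± 0.356 in SCC1 and 10.2 ± 0.367 in SCC2. Mtr, the folate-dependent methionine synthase, rose by 0.47 in SCC2 and stood at 0.081 in SCC1, where it did not pass (limma adjusted p = 0.0691).

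Purine and thymidylate synthesis use the folate-bound carbon. Of 16 tested genes of these pathways 13 rose and 2 fell in SCC1, and 9 rose and 2 fell in SCC2 against LLC1 (medians 0.23 and 0.13). Adsl, a purine synthesis enzyme, rose by 0.51 in SCC1 and fell by 0.26 in SCC2, and Tyms, thymidylate synthase, rose by 0.16 and 0.41. Of 7 tested genes of glycolysis around 3-phosphoglycerate 4 rose and 3 fell in SCC1, and 3 rose and 2 fell in SCC2 (medians 0.10 and 0.045). Eno1, enolase, had the order of most members at 1843 ± 3.65 FPKM in LLC1, 1328 ± 7.12 in SCC1 and 2123 ± 10.1 in SCC2 (SD, n = 3 each). The second enolase gene Eno2 had the opposite order. No list was tested as a set, and these counts stand against the same shares of all tested genes as given for the members.

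**Figure D4:**
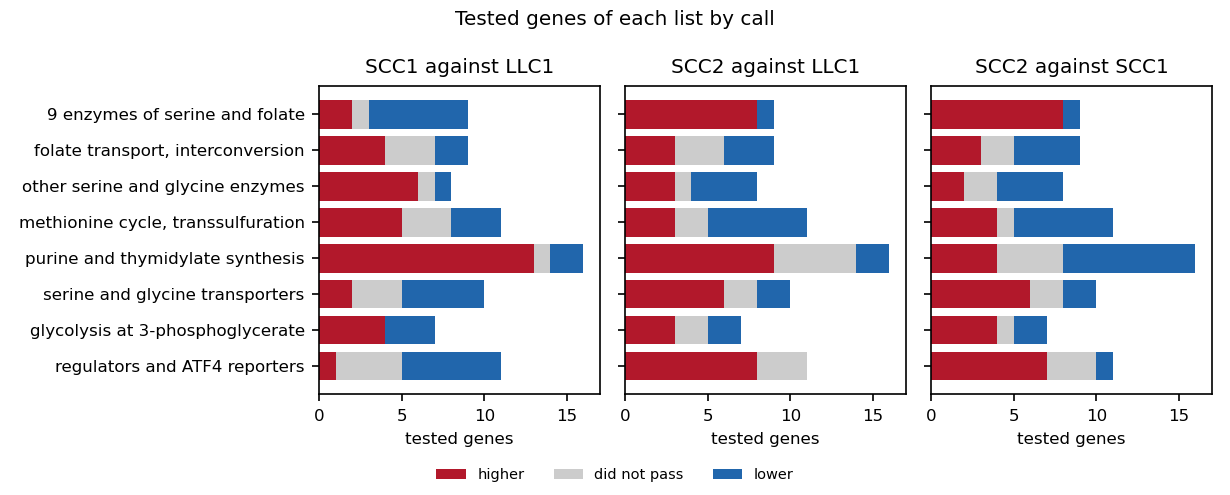
Number of tested genes (horizontal axis) called higher (red), lower (blue) or not passing (grey) in the 9 enzymes and in each of the 7 pathway lists, for the 3 comparisons. The lists differ in size, so bar lengths are not shares. In SCC2 against LLC1, 1 of the 9 enzymes was called lower. The same call was made for 0 of 11 regulators with ATF4 reporters, 2 of 16 purine and thymidylate genes and 32.9% of all tested genes.

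Patterns were compared for 7730 tested genes with a mean of at least 5 FPKM over the libraries. The members and genes with predicted or clone names were left out. The pattern most like the members' mean standardised log2(FPKM + 1) was that of Pak2, Anxa5 and Prelid1 (Pearson's r = 0.997 each). Slc27a1, Arpc2, Stx2, Tmed9 and Thop1 followed (0.996 each). The members' mean joins members that rose and members that fell in SCC1. It ran from -0.488 to -0.415 in LLC1, from -0.643 to -0.521 in SCC1 and from 0.982 to 1.09 in SCC2. The r runs over 9 libraries in 3 lines, so it mainly compares 3 line means, and 455 genes reached 0.95. Anxa5, a phospholipid-binding annexin, had mean levels of 482 FPKM in LLC1, 472 in SCC1 and 681 in SCC2. Pak2, a protein kinase, had 17.9, 17.5 and 23.0 FPKM. In both genes SCC1 and LLC1 differed little and SCC2 stood apart.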

How the data were processed

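RNA sequencing was used on 9 libraries, 3 each of LLC1, SCC1 and SCC2, grouped by the sample labels. The deposited table gives FPKM per gene for each library, computed by the authors on mouse build GRCm38 (mm10), per the submitters' processing notes. The series' design text names Trimmomatic, hisat2, cufflinks for FPKM and HTSeq-count for counts, without versions; the counts were not used here. The design text names a stranded TruSeq kit after mirVana extraction and the sample labels a SMARTER kit after RNeasy, so the kit is uncertain. Strand use and treatment of reads matching several places are not stated in them.

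FPKM were turned into log2(FPKM + 1), and genes with at least 1 FPKM in at least 3 libraries (10519) were fitted with limma 3.58.1 in R 4.3.3, all libraries in 1 fit with trended, robust moderation, two-sided, adjusted after Benjamini-Hochberg. The fit was tested on simulated data. Whole fragments per gene were recovered from FPKM steps (tolerance 0.001 of a fragment) for depth and for a voom fit. Tables and figures used Python 3.11.15, pandas 2.3.3, numpy 2.4.6 and matplotlib 3.10.9. Gene positions are from GENCODE M21 and promoters from RefSeq (GRCm38.p6). Chromosomes for the chromosome medians came from a RefSeq gene list, to which 15665 of 15768 symbols matched.

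The members and lists were chosen with earlier results of these data known. Named genes were the members, Atf4, Myc, the 8 genes of most similar pattern, and from each list and comparison up to 3 called genes of largest absolute change with at least 5 FPKM in a line compared; the text gives some of these. Replicate numbers did not pair the libraries: correlations of same-numbered deviations lay between -0.0683 and 0.089. Alternatives covered pseudocount, filter, scaling, moderation, a replicate block, chromosome medians, voom and leaving out each library.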

Additional observations from a re-analysis of the deposited data

Results flagged for a closer look

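For 7 members SCC1 and SCC2 were called in opposite directions against LLC1. The difference between the subclones was called as well (limma, SCC2 minus SCC1, log2 scale). Members were listed here only if each of these calls held, so the call of the difference is not separate support. Among all tested genes 70.1% were called in SCC1 and 67.6% in SCC2 against LLC1. The share of them called in opposite directions was not counted, so the count of 7 members cannot be set against it. The difference was 2.32 for Aldh1l2, 1.33 for Shmt2, 1.29 for Psat1, 1.27 for Psph, 0.77 for Mthfd2 and 0.45 for Mthfd1l, and -0.51 for Shmt1. With chromosome medians subtracted the difference was 0.16 for Mthfd1l and -0.31 for Shmt1. The largest adjusted p among these 7 was that of Shmt1 (4.05e-08). The opposite directions of Mthfd1l rest on its call in SCC1, which was lost in several alternatives, and those of Shmt1 on its call in SCC2, which was lost with chromosome medians subtracted.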

How the results depend on the processing

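Calls and changes were recomputed under 18 alternatives, and ratios and sums under median-of-ratios scaling and without each library. Of the member changes 471 of 486 kept direction and side of the threshold. Many could not change direction. The filters, the moderation options, the replicate block and leaving out a library of a line not compared keep the log2 change itself. Of the counts 161 of 162 stayed within 1.5 times, and 71 of 72 ratios and sums within the replicate SD. Ratios within a library do not respond to scaling, and leaving out 1 of 3 libraries cannot move a mean by its SD. Only the sums under scaling could thus move. In SCC1 against LLC1 Mthfd1 reversed from 0.013 to -0.041 after quantile normalisation, -0.0044 with median-of-ratios scaling and -0.056 with chromosome medians subtracted, and Mthfd1l reversed to 0.13 with the last. The causes were not tested. With chromosome medians subtracted, 0 members were called lower in SCC2 against LLC1 (Shmt1 -0.08). Summed cytosolic FPKM in SCC1 was 79.8 with median-of-ratios scaling. The Mthfd1l call in SCC1 was also lost without the filter on low values (adjusted p = 0.0611), without trended, robust moderation (adjusted p = 0.085) and with a replicate block (adjusted p = 0.0534). The replicate block, on numbers that did not pair the libraries, changed no other member call and gave 7306, 7046 and 7962 genes called in place of 7376, 7112 and 8031. Leaving out 1 library gave 2 members higher and 5 to 6 lower in SCC1 against LLC1.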
